A study of Mus musculus with 3 samples.

Results

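The histone genes of adult lung endothelial cells (ECs) were described from bulk RNA-seq values. Members were chosen by symbol alone, as the rows named Hist1h to Hist4h, which are the replicative genes, and the rows named H2af or H3f3 together with *H1f0* and *H1fx*, which are the variant genes. The rule found 82 of the 24346 rows of the table, 68 replicative and 14 variant. The ECs came from the lungs of wild type C57BL/6J male mice aged 6 to 8 weeks, which make up the only group analysed here, and were collected straight from tissue without culture. The study injected an anti-VE-cadherin antibody before dissociation and sorted cells positive for CD31 and VE-cadherin and negative for CD45 and Podoplanin. The group has 3 libraries, named S38, S44 and S52, and the labels do not say whether each came from 1 mouse or from a pool. The samples analysed here hold no second condition, so levels, their spread over the 3 libraries and shares are given without a test.

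Histones are the proteins around which DNA is wound. H2A, H2B, H3 and H4 form the core of the nucleosome, and H1 binds the linker DNA between nucleosomes. Replicative histone genes sit in clusters, are transcribed mainly in S phase, lack introns as a rule, and give mRNAs that end in a conserved stem-loop instead of a poly-A tail. The stem-loop is bound by SLBP and the mRNA is cut just after it. Variant histone genes are usually spliced, give polyadenylated mRNA and are expressed throughout the cell cycle, so they supply histones to cells that do not divide. Some replicative genes can also give polyadenylated mRNA that runs past the stem-loop, mostly in cells that have left the cycle. The libraries were made from poly-A selected RNA, so an mRNA that ends at the stem-loop is expected to be captured poorly, and a low value here is not a measure of total histone mRNA.

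The values are FPKM, fragments scaled to the length of the transcript and to the size of the library, so levels of different genes are on a scale per length. The depth, estimated from the steps between low values, was near 37800000 fragments for S38, 38900000 for S44 and 34200000 for S52. For an intronless replicative gene, 3 fragments, the limit that a count of 0 allows, corresponded to a median of 0.25 FPKM and to at most 0.43 FPKM. This limit covers the counting error of the 0 only. Fold differences given as at least a value take the mean of the other libraries as observed, without its error. *Pecam1*, which encodes CD31, was at 1125 to 1216 FPKM and *Cdh5*, which encodes VE-cadherin, at 877 to 978 FPKM, and all 10 endothelial markers were above 40 FPKM in every library. S52 stood apart from the other libraries. The 4 platelet markers summed to 1692 and 1345 FPKM in S38 and S44 but to 37.96 FPKM in S52, and the 5 alveolar type 2 markers to 3778, 3164 and 755 FPKM. The replicative share, the variant shares of H1 and H2A and the count of members over 2-fold are therefore also given without S52. Means and SDs of single genes and coefficients of variation include it.

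The stem-loop was read from spliced GENCODE transcript sequences to show which annotated transcripts carry it. A stem-loop in an intron or past the annotated end was not seen. The word of 16 bases found most often within 100 bases past the stop codon of replicative genes was present, without a mismatch, in 26 of them. It pairs with itself to form a stem around a short loop. Sites of the genes that the values below turn on are printed with their flanks of up to 7 bases in lower case and the 16-base word in capitals, 5′ to 3′ on the coding strand (GRCm38).
Hist1h1c, chr13:23739505-23739534, plus strand: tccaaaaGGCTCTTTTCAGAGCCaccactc
Hist3h2a, chr11:58955165-58955194, plus strand: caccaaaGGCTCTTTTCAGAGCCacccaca
Hist1h2be, chr13:23585524-23585553, minus strand: aaccaaaGGCTCTTTTCAGAGCCacccaac
Hist1h2ac, chr13:23683470-23683499, minus strand: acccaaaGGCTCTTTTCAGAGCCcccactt
Hist1h3a, chr13:23761883-23761912, minus strand: aaccaaaGGCTCTTTTCAGAGCCacacacg
Hist1h4d, chr13:23581943-23581972, plus strand: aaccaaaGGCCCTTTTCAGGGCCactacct
Hist1h4i, chr13:22040959-22040988, minus strand: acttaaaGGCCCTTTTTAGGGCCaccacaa
Hist2h4, chr3:96262932-96262961, minus strand: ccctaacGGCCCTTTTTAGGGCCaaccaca
H2afx, chr9:44335233-44335262, plus strand: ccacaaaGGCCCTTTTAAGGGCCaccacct

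The word was searched for in the 52 replicative genes whose GENCODE transcript runs at least 16 bases past the stop codon. With up to 2 mismatches it was found in 41 of them (78.8%), in 0 of 10 variant genes and in 1 of 20861 other coding genes. The word began 22 to 59 bases after the stop codon. Transcripts of *Hist2h3b* and *Hist1h1a* end 37 and 48 bases past it, short of their RefSeq models, so a word there could be missed. The linker and core classes H1, H2A, H2B and H3 shared the same word, exactly or with 1 or 2 changes, all within the loop. The H4 genes had a word of their own: all 10 H4 sites with up to 3 mismatches carried T4C and A13G, counted from 1 at the first base of the word, 1 change in each arm of the stem. *Hist1h4i* and *Hist2h4* had C10T as well. *H2afx*, whose mRNA is known to come in both a stem-loop and a polyadenylated form, was the only variant gene with a match at 3 mismatches, a level at which 23 other coding genes also matched. *Hist1h2bc* and *Hist2h2be* had no match within the 100 bases, and the intron of the spliced *Hist1h2bc* was not searched.

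Which transcript the deposited values refer to was read from the values themselves. RefSeq models of intronless replicative genes are short, with a median length of 487.5 bases, and 41 of the 42 that could be placed against a stem-loop end 4 to 8 bases past it. GENCODE M21 transcripts of the same genes often run on. *Hist1h1c* ends 44 bases past its stop codon in RefSeq and 880 bases in GENCODE, and *Hist3h2a* ends 62 and 1700 bases past it. Among 28 low values of intronless members, chosen as 0.5 to 6.5 fragments by the RefSeq length, 25 were within 0.15 of a whole number of fragments with the RefSeq length and 7 with the GENCODE length. Because the RefSeq length chose these values, the comparison is a description. If fragments were counted over the short model, those that lie wholly past the stem-loop would not be in the FPKM.

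Variant genes carried most of the histone signal. With detection set at a mean of at least 1 FPKM, 9 of 14 variant genes were detected (64.3%) and 15 of 68 replicative genes (22.1%), beside 48.3% of all rows. All 9 variant genes were at or above 1 FPKM in every library, and 10 of the 15 replicative genes were. The members summed to 1487 FPKM in S38, 1588 in S44 and 1423 in S52. Replicative genes supplied 21.9%, 20.2% and 7.61% of it, a mean of 16.6% ± 7.80 (SD, n = 3) and 21.04% without S52. *H3f3a* and *H3f3b* together supplied 59.3%, 62.1% and 66.9%. The 2 libraries S38 and S44 were close in the replicative share, and S52 was far below both.

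**Figure D1:**
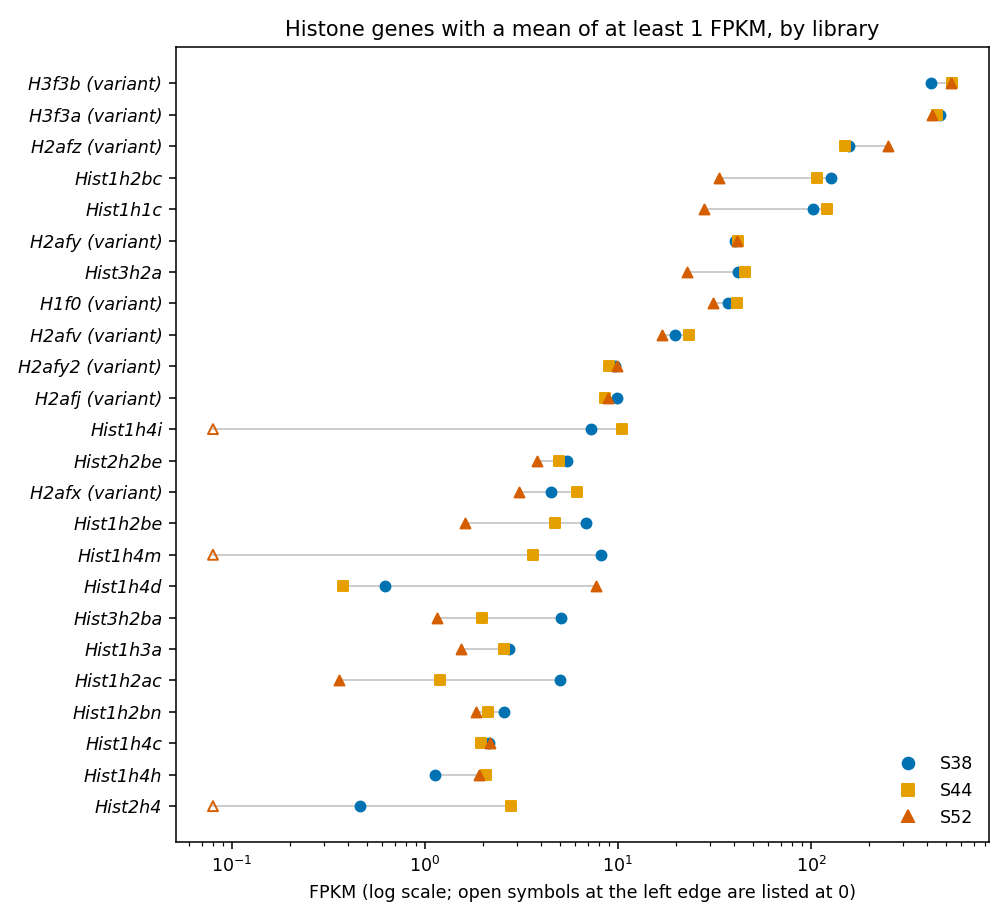
FPKM on a log scale of the 24 detected histone genes, with circles for S38, squares for S44, triangles for S52 and grey lines from the lowest to the highest library. The variant genes have symbols close together, whereas *Hist1h2bc*, *Hist1h1c* and most lower replicative genes have S52 well to the left, and *Hist1h4i*, *Hist1h4m* and *Hist2h4* are listed at 0 in S52.

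The core histone H3 was represented almost only by its variant form H3.3, which replaces H3 outside replication. *H3f3b* (chr11:116021912-116027962, minus strand, 6 exons) was at 419.6 FPKM in S38, 537 in S44 and 529 in S52, a mean of 495 ± 65.7 FPKM (SD, n = 3). *H3f3a* (chr1:180800832-180813943, minus strand, 5 exons) was at 463, 449 and 424 FPKM, a mean of 445 ± 19.9. Both encode the same protein. *H3f3b* was the lower of the pair in S38 and the higher in the other libraries, so the order of their levels did not hold over libraries. The 12 replicative H3 genes summed to 4.67, 2.88 and 1.54 FPKM. The variant share of H3 was therefore 99.5%, 99.7% and 99.8%, and the variant sum was 189, 342 and 619 times the replicative sum. The rise of that ratio follows the fall of the replicative sum, since the variant sum itself was 882 to 987 FPKM.

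Among H2A variants the H2A.Z gene *H2afz* led. H2A.Z is deposited around promoters and enhancers by the SRCAP and EP400 remodellers. *H2afz* (chr3:137864487-137866922, plus strand, 5 exons) was at 157 FPKM in S38, 149.8 in S44 and 251 in S52. Its mean was 186 ± 56.4 FPKM (SD, n = 3), and S52 was its highest library. *H2afv*, the second H2A.Z gene, was at 19.8, 23.2 and 16.9 FPKM, with S52 the lowest. *H2afz* exceeded *H2afv* by 7.92, 6.45 and 14.9 times. Only 36.6% of the 51-base windows of the *H2afz* transcript were unique to it, and 55.6% also occurred in a *Tmcc1* transcript. The *Tmcc1* row was at 8.62, 8.37 and 13.1 FPKM.

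MacroH2A, a large H2A with an additional macrodomain that is found in stably silenced chromatin, was the steadiest of the group. *H2afy*, which encodes macroH2A1, was at 40.6 FPKM in S38, 41.9 in S44 and 41.2 in S52, a mean of 41.2 ± 0.64. *H2afy2*, which encodes macroH2A2, was at 9.63, 8.94 and 9.93 FPKM. The former exceeded the latter by 4.15 to 4.69 times in each library. *H2afj*, a mammalian H2A variant linked to senescence, was at 9.88, 8.52 and 8.84 FPKM. These 3 genes varied little between libraries.

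*H2afx*, whose product is phosphorylated around DNA breaks, was the lowest detected variant gene. Its values were 4.51 FPKM in S38, 6.11 in S44 and 3.06 in S52, and its highest library was 1.999 times the lowest, the widest relative spread of a detected variant gene. *H2afb1*, *H2afb2* and *H2afb3*, the genes of a short H2A of the testis, were listed at 0 in all libraries, as was *H2afy3*, a processed pseudogene in GENCODE. Against this, the 18 replicative H2A genes summed to 47.4, 48.7 and 23.8 FPKM. The variant share of H2A was 83.6%, 83.0% and 93.3%, a mean of 86.6% ± 5.76 (SD, n = 3) and 83.3% without S52. With members under 50% unique windows left out, *H2afz* among them, the share was 69.1%.

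**Figure D2:**
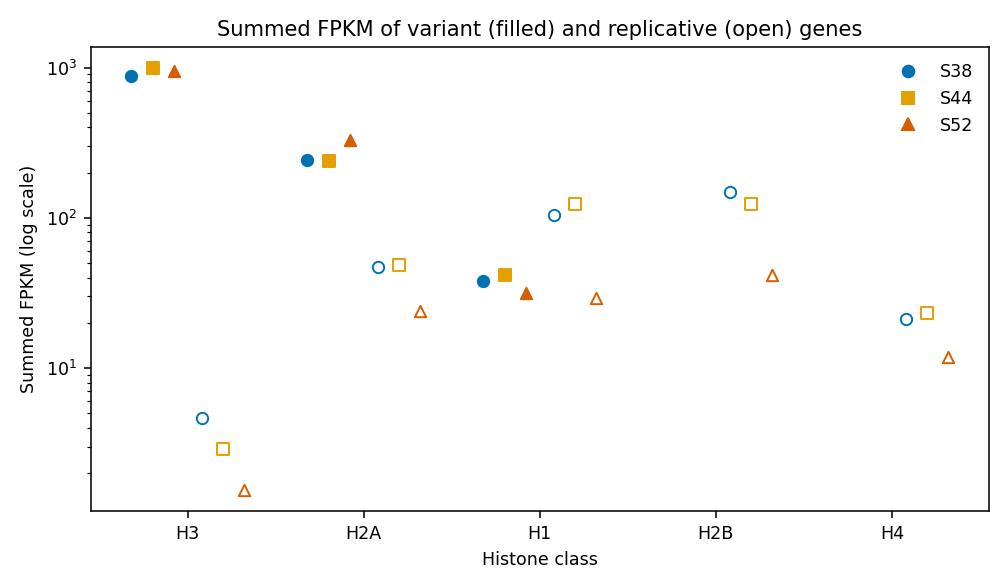
Summed FPKM on a log scale for each histone class, with filled symbols for variant genes (to the left in each class), open symbols for replicative genes, and circles, squares and triangles for S38, S44 and S52. Variant genes exceed replicative genes in H3 and H2A in every library, replicative H1 exceeds variant H1 in S38 and S44 but not in S52, and the lowest replicative sum of each class is that of S52.

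Linker histones were split between a replicative and a variant gene. *Hist1h1c*, which encodes H1.2 (chr13:23738808-23740367, plus strand, 1 exon), was at 102 FPKM in S38, 120.6 in S44 and 27.9 in S52, or about 2224, 2647 and 529 fragments. Its mean of 83.6 ± 49.1 FPKM covers a 4.32-fold range. *H1f0*, which encodes H1.0, the linker histone of differentiated cells, was at 37.4, 41.3 and 31.2 FPKM, a 1.32-fold range. *Hist1h1c* was thus the higher gene in S38 and S44, by 2.74 and 2.92 times, and the lower one in S52, at 0.89 of *H1f0*. The variant share of H1 was 26.7%, 25.2% and 51.7%, a mean of 34.6% ± 14.9 (SD, n = 3) and 25.97% without S52.

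The remaining linker genes were low. *H1fx*, the other variant linker gene, was at 0.67, 0.11 and 0.16 FPKM, and was the variant gene next below the detection threshold. *Hist1h1t*, the testis H1, was listed at 0 in every library. *Hist1h1d*, *Hist1h1e*, *Hist1h1a* and *Hist1h1b* had means of 0.66, 0.58, 0.53 and 0.083 FPKM. They did not move together: *Hist1h1d* was at 0.17, 0.42 and 1.38 FPKM, with S52 the highest, while *Hist1h1e* and *Hist1h1a* were at 0.67 to 1.08 FPKM in S38 and S44 and at 0 in S52. For both, 3 fragments in S52 correspond to 0.14 and 0.15 FPKM, so S52 was at least 6.10-fold and 5.23-fold below the mean of S38 and S44.

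Levels of the H1 genes were set beside their promoters, because 1 of 6 was detected. H1 promoters are known for a pair of elements, the motif AAACACA and a CCAAT box. Both strands of 250 bases before to 50 after the start were searched. RefSeq promoters (GRCm38.p6) were matched for 74 of 82 members. AAACACA occurred in 5 of the 6 H1 promoters and in 8.22% of the 27025 genes with a promoter, and CCAAT in 6 of 6 H1 promoters and 41.1% of all. The 150 bases before the start of the detected and of an undetected H1 gene are shown, with AAACACA, the CCAAT box and the TATA motif TATAAA, each read on either strand, in capitals. The run of capitals at the left edge of the second is the cut end of such a match.
Hist1h1c (H1f2), chr13:23738657-23738806, plus strand: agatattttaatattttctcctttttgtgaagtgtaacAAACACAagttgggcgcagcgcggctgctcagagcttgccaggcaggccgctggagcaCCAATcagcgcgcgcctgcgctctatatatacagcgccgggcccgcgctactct
Hist1h1d (H1f3), chr13:23554882-23555031, plus strand: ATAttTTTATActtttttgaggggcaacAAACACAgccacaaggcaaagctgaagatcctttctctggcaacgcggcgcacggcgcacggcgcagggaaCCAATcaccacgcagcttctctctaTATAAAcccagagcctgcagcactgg
Both carry AAACACA, 112 and 122 bases before the start, and CCAAT, 54 and 51 bases before it. Their mean levels were 83.6 and 0.66 FPKM. Over the other classes, CCAAT was in all matched promoters of H2A, H2B and H3 and in 3 of 12 of H4, and the octamer ATTTGCAT was in 7 of 18 H2A and 7 of 16 H2B promoters, beside 1.97% of all genes. Of the variant promoters 9 of 12 had CCAAT and 1 of 12 had TATAAA, against 35 of 62 replicative promoters with TATAAA and 15.7% of all genes. A match is a run of letters and not a bound site.

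H2B has no variant gene under this rule, and 1 replicative gene supplied most of it. *Hist1h2bc* (chr13:23684199-23692908, plus strand, 2 exons) was at 127 FPKM in S38, 107 in S44 and 33.5 in S52, a mean of 89.1 ± 49.1 FPKM and a 3.78-fold range. It made up 85.8%, 86.7% and 79.9% of the H2B sum. Its annotated transcript is spliced, runs 742 bases past the stop codon and holds no stem-loop word in the 100 bases searched. *Hist1h2bq* and *Hist1h2br* are also spliced, run 823 bases past it and had no word found. Both were listed at 0 in every library, with 0% and 0.17% of their windows unique. Of the 51-base windows of *Hist1h2bc* 69.6% were unique, and 23.1% also lay in *Hist1h2bg*, whose own row was at 0.34, 1.11 and 0 FPKM. The sum of *Hist1h2bc*, *Hist1h2be* and *Hist1h2bg*, which share windows, was 134, 113 and 35.1 FPKM.

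The transcript of *Hist2h2be* runs 2192 bases past the stop codon and has no stem-loop word in the first 100 of them, which were searched. *Hist2h2be* was at 5.44 FPKM in S38, 4.97 in S44 and 3.81 in S52, a 1.43-fold range, with all of its windows unique. This range lay within that of the detected variant genes. So did those of *Hist1h4c*, *Hist1h3a*, *Hist1h4h* and *Hist3h2a*, which carry the word, at 1.11-, 1.78-, 1.84- and 1.99-fold. *Hist1h2bn*, which was not searched for the word, had a 1.41-fold range. *Hist1h2bc*, also with no word found and a long transcript end, had a 3.78-fold range. *Hist1h2be* was at 6.82, 4.75 and 1.62 FPKM and *Hist3h2ba* at 5.07, 1.98 and 1.16 FPKM, with S38 the highest and S52 the lowest for both. *Hist1h2bn* was at 2.58, 2.12 and 1.83 FPKM, but only 13.9% of its windows were unique. *Hist1h2ba*, the testis H2B, was listed at 0 throughout.

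Replicative H2A came mainly from *Hist3h2a*, the H2A gene of the small cluster on chromosome 11 (chr11:58954685-58956830, plus strand, 1 exon). It had values of 42.1, 45.3 and 22.8 FPKM, or about 569, 613 and 263 fragments. Its mean of 36.7 ± 12.2 FPKM was close to that of *H1f0*, and the ranges of both genes overlapped. In GENCODE 31.4% of its windows also lay in *Trim17*, whose row was at 0.26, 0.19 and 0.48 FPKM. *Hist1h2ac* was at 5.01, 1.19 and 0.36 FPKM, a 14.0-fold range, with about 63.8, 15.1 and 3.87 fragments. The other 16 replicative H2A genes were below 1 FPKM, 10 of them at 0 in all libraries. *Hist1h2aa*, the testis H2A, was among these.

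Replicative H3 and H4 genes were low, none with a mean of 10 FPKM. *Hist1h3a* was the only detected H3 gene of the cluster, at 2.74, 2.58 and 1.54 FPKM, or about 36.4, 34.3 and 17.5 fragments, and 44.6% of its windows also lay in *Hist1h3h*. *Hist1h3d*, at a mean of 0.71 FPKM, was the replicative gene next below the threshold, and *Hist2h4*, at 1.09, the one next above it. Of the 12 replicative H3 genes 8 were at 0 in all libraries.

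Of the 13 replicative H4 genes 6 were detected, and like H2B this class has no variant gene under this rule. *Hist1h4c* was at 2.16, 1.95 and 2.169 FPKM, or about 18.4, 16.3 and 15.2 fragments, and hardly differed between libraries. *Hist1h4h* was at 1.13, 2.09 and 1.91 FPKM. The others changed sharply. *Hist1h4i* was at 7.24 FPKM in S38, 10.4 in S44 and 0 in S52, where 3 fragments correspond to 0.38 FPKM, so S52 was at least 23.5-fold below the mean of the other libraries. *Hist1h4m* was at 8.14, 3.63 and 0 FPKM, at least 15.7-fold lower in S52, but only 10.2% of its windows were unique.

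*Hist1h4d* went the other way, at 0.62 FPKM in S38, 0.38 in S44 and 7.70 in S52, or about 5.91, 3.56 and 61.1 fragments. Its mean passed the detection threshold through S52 alone. *Hist2h4* was at 0.46, 2.81 and 0 FPKM. The H4 sum was 21.2, 23.1 and 11.8 FPKM, a narrower range than that of these single genes. Of the windows of the GENCODE transcript of *Hist1h4d* 7.996% also lay in *Hist1h4i*. That transcript has 1138 bases against 402 in RefSeq, and the share over the shorter model was not computed. Whether reads were moved between H4 rows in S52 was not tested.

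Ranking the 24 detected members by mean gives 23 pairs of neighbours, and the libraries of the higher and the lower gene were fully apart in 4 of them. These are the steps from *H3f3a* to *H2afz*, from *H2afz* to *Hist1h2bc*, from *H1f0* to *H2afv* and from *H2afv* to *H2afy2*. All other neighbours overlapped. Among replicative genes the signal was concentrated: *Hist1h2bc*, *Hist1h1c*, *Hist3h2a*, *Hist1h4i* and *Hist2h2be* supplied 87.3%, 89.8% and 81.2% of the replicative sum in S38, S44 and S52. The first 3 of these alone supplied 77.7% to 85.0%.

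By genomic position, 11 of 54 genes of the large Hist1 cluster on chromosome 13 were detected, 2 of 10 of Hist2 on chromosome 3, 2 of 3 of Hist3 on chromosome 11 and 0 of 1 of Hist4 on chromosome 6. In all, 28 of the 68 replicative genes were at 0 in every library and 27 had values above 0 in 1 or 2 of them. Over all 24346 rows, 7183 were at 0 in every library and 3321 had values above 0 in 1 or 2. S52 had more zeros over the whole table, with 9923 rows at 0 against 8324 in S38 and 8119 in S44, and 1456 rows were at 0 in S52 alone, 12 replicative histone genes among them. An exact 0 in these files can stand for too few fragments as well as for none, and *Hist1h2bf* and *Hist1h3f*, among others, were listed with values close to a single fragment.

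Detection was then set beside the annotated transcript end. Of the 31 replicative genes whose GENCODE transcript runs more than 100 bases past the stop codon 11 were detected (35.5%), against 4 of the 36 that end within 100 bases (11.1%). Genes of the first kind held 95.2% of the replicative sum. Genes that end early also share more sequence: 34 replicative genes had under 50% unique windows, and 2 of them were detected, against 13 of the 34 with more. Restricted to genes with at least 50% unique windows, 11 of 24 long and 2 of 9 short ones were detected. Windows were taken over the GENCODE transcript, so a long end adds windows that the RefSeq model lacks. The restriction therefore does not separate the transcript end from sharing. Of 41 genes with the stem-loop word 10 were detected (24.4%), and of 6 searched genes with 5 or more mismatches 2 were. Some of these 6 have transcripts that are spliced or end early, so a stem-loop may have been missed. These are counts over genes, which are not independent replicates, and annotated ends do not show where the RNA in these cells ended.

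**Figure D3:**
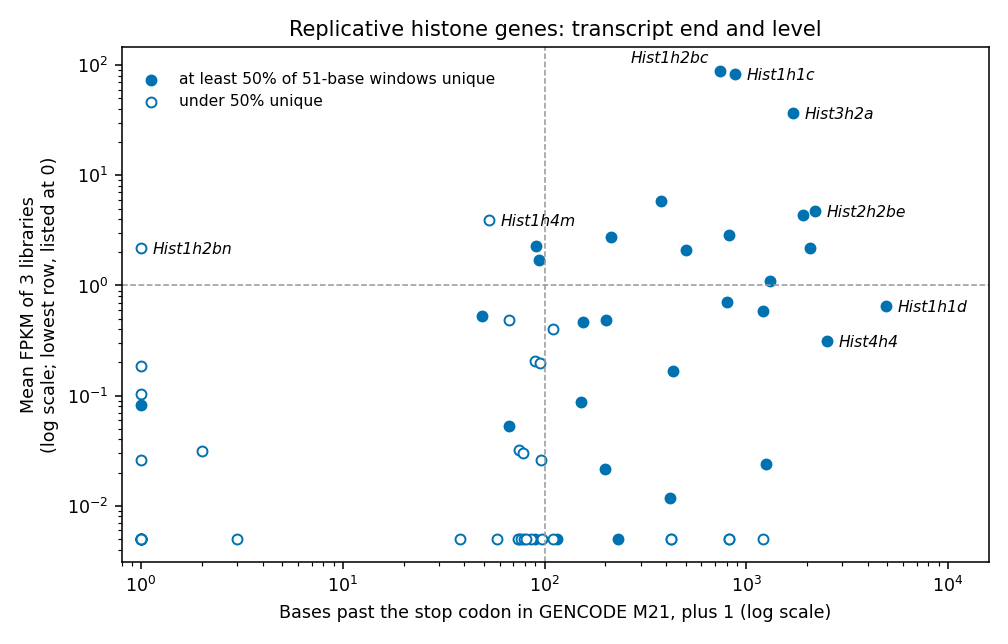
Mean FPKM over 3 libraries on a log scale against the bases past the stop codon in GENCODE plus 1, also on a log scale, for 67 replicative genes, with filled points for at least 50% unique windows, open points for fewer, the lowest row for genes listed at 0, and dashed lines at 1 FPKM and at 100 bases. The 3 highest genes lie to the right of the vertical line, where *Hist1h1d* and *Hist4h4* lie also, below 1 FPKM.

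Libraries differed for replicative genes more than for variant genes. The highest library exceeded the lowest by over 2-fold for 9 of 15 detected replicative genes (60%), 0 of 9 detected variant genes and 20.1% of the 11770 detected rows. Without S52 the count of members was 5, and the share over all rows was not computed for that setting. The median coefficient of variation over libraries was 58.7% for replicative, 13.3% for variant and 17.6% for all detected genes. Replicative genes are also lower on average, and low values vary more. S52 was the lowest library for 12 of 15 replicative genes (80.0%), 4 of 9 variant genes (44.4%) and 46.3% of detected rows. It was more than 2-fold below the mean of S38 and S44 for 8 of 15 replicative genes (53.3%), 0 of 9 variant genes and 10.9% of detected rows. Of these 8, *Hist1h4i*, *Hist1h4m*, *Hist1h2ac* and *Hist2h4* were below 1 FPKM in S52 and passed the detection filter through the other libraries. The filter thus chose them for being higher there, whereas every detected variant gene passed in each library. The same genes are among the 9 over 2-fold, together with *Hist1h4d*, which passed through S52 alone. The count over 2-fold and the median coefficient of variation of replicative genes share this limit.

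*Hist1h1c* was 3.997-fold lower in S52, *Hist1h2be* 3.58-fold, *Hist1h2bc* 3.49-fold, *Hist3h2ba* 3.04-fold and *Hist3h2a* 1.92-fold, each against the mean of S38 and S44 on the FPKM scale. On log2(FPKM + 1), the median of the ratio of S52 to that mean was -1.07 over the 15 detected replicative genes and -0.052 over the 9 variant genes, beside -0.078 over all detected rows. The size of the replicative median depended on the genes and the scale: it was -0.36 over all replicative genes with a mean above 0, -1.77 over those with a mean of at least 10 FPKM and -1.60 over the detected ones without a pseudocount. For H1, H2A, H2B, H3 and H4 the replicative sum of S52 was 25.8%, 49.6%, 30.9%, 40.8% and 53.2% of the mean of the other libraries. The H1, H2A and H2B sums came mostly from *Hist1h1c*, *Hist3h2a* and *Hist1h2bc*, and H3 had 1 detected gene, so these sums largely repeat single genes. The exceptions among detected replicative genes were *Hist1h4d*, *Hist1h4c* and *Hist1h4h*, none of which was lowest in S52. *Hist1h4c* in S52 had a log2 ratio of 0.052 as deposited and of -0.0096 when values were rescaled to an equal sum.

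Markers of other cell types moved with S52 as well. All 4 platelet markers, all 5 alveolar type 2 and all 5 airway markers were lowest there, with median log2 ratios of -4.85, -2.11 and -2.25. The airway sum was 2780, 2316 and 401 FPKM, and *Bpifa1* was at 0 in S52. Of 5 leukocyte markers 4 were lowest in S52 (sums of 1062, 791 and 170.5 FPKM, *Cd3e* at 0). Nearly all of these sums came from *Lyz2*, at 1047, 780 and 166 FPKM. *Ptprc*, which encodes CD45, was at 4.30, 2.06 and 0.43 FPKM, and *Csf1r*, the marker not lowest in S52, at 1.25, 1.85 and 1.30 FPKM. The 3 erythroid markers given here were also lowest in S52, with log2 ratios of -7.95, -1.15 and -0.69. The first is a beta-globin gene, at 185, 308 and 0.0032 FPKM, whereas the last, an alpha-globin gene, was at 147, 147 and 91.0 FPKM. Their falls thus differed widely in size, and the reason was not tested. The 4 mural markers had no such fall, at sums of 103, 55.5 and 100.7 FPKM, nor had the 10 endothelial markers, at 6001, 6577 and 5546 FPKM and a median log2 ratio of -0.019. The 4 fibroblast markers summed to 73.1, 56.0 and 41.9 FPKM, and the 4 lymphatic markers to 35.6, 36.2 and 23.5 FPKM, with *Ccl21a* at 0 in S52. Single genes of these lists had no common direction. S52 was the lowest library for 2 fibroblast markers and the highest for 1, with a median log2 ratio of -0.22. For the lymphatic markers it was lowest for 2 and highest for 2, *Prox1* and *Pdpn*, with a median of 0.071. The part of these cells in the replicative values was not tested, and in a sorted bulk sample fewer cells of a type and less RNA per cell cannot be told apart.

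**Figure D4:**
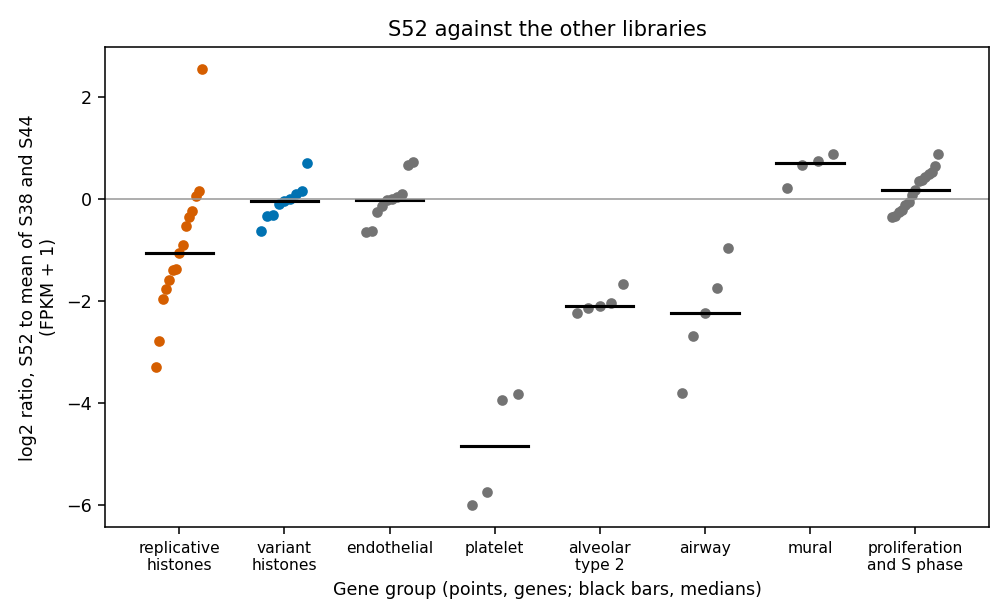
Log2 ratio of S52 to the mean of S38 and S44, on FPKM + 1, for detected replicative (orange) and variant (blue) histone genes and for 6 gene lists (grey), with points for genes and black bars for medians. The median is -1.07 for replicative and -0.052 for variant histones, -0.019 for endothelial, -4.85 for platelet, -2.11 for alveolar type 2 and -2.25 for airway markers, and the lone high replicative point is *Hist1h4d*.

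Most genes of a list for making replicative histone mRNA were detected. Of its 15 genes for transcription and 3′ processing 14 were detected, at a median of 11.0 FPKM, beside 48.3% of all rows. The list is not limited to factors particular to histone mRNA. *Npat* and *Lsm11* had means of 2.54 and 1.07 FPKM, against 34.8 FPKM for *Sympk*. *Slbp*, which binds the stem-loop, was at 20.03, 23.4 and 34.4 FPKM, with S52 the highest. *Npat*, the coactivator of histone gene transcription at histone locus bodies, was at 3.06, 3.27 and 1.28 FPKM. *Lsm11*, a part of the U7 snRNP that is particular to histone mRNA processing, was at 1.41, 1.44 and 0.35 FPKM, and its partner *Lsm10* at 12.1, 10.52 and 10.4 FPKM. *Zfp473*, which also works with the U7 snRNP, was the undetected one, at a mean of 0.56 FPKM. Of the list, 8 genes were lowest and 6 highest in S52, so it had no common direction.

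Chaperones of both supply routes were compared on the same scale. Of 9 replication-coupled genes 7 were detected, at a median of 6.53 FPKM. *Chaf1a* and *Chaf1b*, subunits of the CAF-1 complex that loads new H3 and H4 behind the replication fork, were at means of 1.52 ± 0.71 and 1.40 ± 0.21 FPKM. *Asf1b*, the chaperone of proliferating cells, was at 0.39 ± 0.19 FPKM, whereas its paralogue *Asf1a* was at 7.96 ± 0.52 FPKM (SD, n = 3 for each). *Nasp*, which holds the pool of soluble H3 and H4, was at 29.4, 29.0 and 73.6 FPKM, so S52 was the high library here, as it was for *H2afz*. *Rbbp4* and *Rbbp7*, which also serve in other chromatin complexes, were at 43.4 ± 3.28 and 51.9 ± 10.9 FPKM.

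All 17 chaperones and remodellers of variant histones were detected, at a median of 19.2 FPKM. The H3.3 chaperones *Hira* and *Daxx* were at 11.1 ± 0.52 and 37.2 ± 7.89 FPKM, and *Atrx*, the partner of DAXX, at 19.2 ± 2.28 FPKM. *Ubn1* and *Cabin1*, which work with HIRA, were at 24.8 ± 1.57 and 7.19 ± 0.93 FPKM. For H2A.Z, the loading remodellers *Srcap* and *Ep400* were at 8.61 ± 0.78 and 12.1 ± 0.26 FPKM, the chaperone *Vps72* at 38.2 ± 1.04 FPKM, and *Anp32e*, which removes H2A.Z, at 48.4 ± 6.53 FPKM. *Ssrp1* and *Supt16*, the subunits of the FACT complex, were at 53.1 ± 6.83 and 13.6 ± 2.71 FPKM (SD, n = 3 for each). S52 was the highest library for 10 and the lowest for 3 of the 17.

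**Figure D5:**
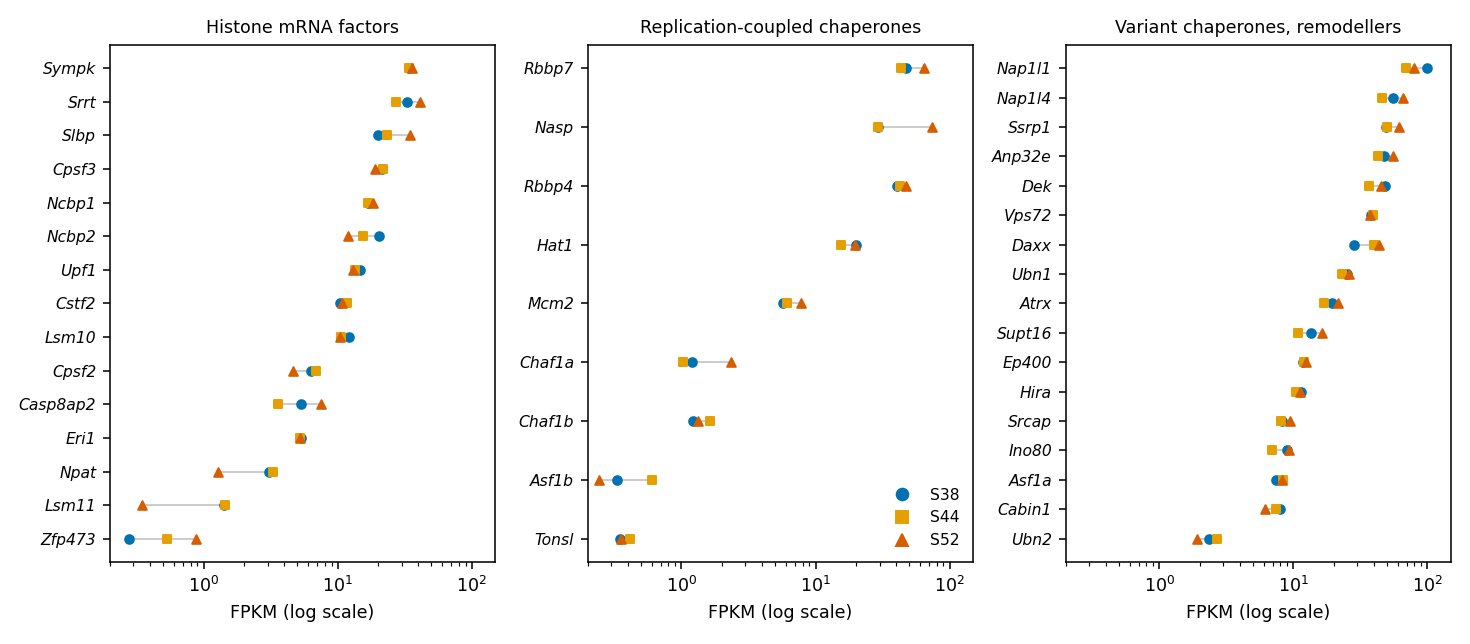
FPKM on a log scale of the genes for histone mRNA transcription and 3′ processing (left), replication-coupled chaperones (middle) and chaperones and remodellers of variant histones (right), with circles for S38, squares for S44 and triangles for S52. *Nasp* has S52 far to the right of the other libraries, and *Npat* and *Lsm11* have it to the left.

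Of 15 genes of proliferation and S phase 6 were detected, and the median of their means was 0.70 FPKM, beside 48.3% detected and a median of 0.78 FPKM over all rows. *Mki67* was at 0.082, 0.44 and 0.16 FPKM and *Top2a* at 1.07, 0.93 and 0.56 FPKM. *Pcna*, the replication clamp, which also serves in DNA repair, was the highest of the list at 172, 201 and 289 FPKM. S52 was the highest library for 8 of the 15 and the lowest for 4. *Cenpa*, the H3 variant of centromeres, lies outside the rule for members and was at 4.83 ± 1.19 FPKM, and its chaperone *Hjurp* at 3.97 ± 1.46 FPKM (SD, n = 3 for each). The germ cell histones *H1fnt* and *H2bfm* were listed at 0, and *H1foo* and *Hils1* had a value above 0 in 1 library each, 0.87 FPKM in S44 and 1.12 FPKM in S52.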

How the data were processed

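Adult lung ECs were measured by RNA-seq of 3 libraries in 1 group. The labels give a TruSeq v2 kit without strand information, poly-A selection and paired reads of 51 bases. Values in FPKM, one per gene symbol on mm10, were deposited by the authors. The submitters' processing notes name bcl2fastq 2.17, FastQC 0.11.5, Trimmomatic 0.36, TopHat2 2.1.0 and Cufflinks 2.2.1, while the study's methods describe a different pipeline with counting per gene. The annotation behind the FPKM was not given in the sources used here. Because no kit strand was kept, reads of overlapping genes on opposite strands cannot be told apart.

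FPKM were used as deposited. Means, SDs, sums and shares were computed on FPKM, and ratios of S52 on log2(FPKM + 1). Detection was a mean of at least 1 FPKM. No per-sample column was left unused. Members, lists and choices were made with earlier results of these data known. Named genes were all variant members, the 15 highest replicative members, the highest of each class, the 5 widest ranges, neighbours of the threshold, testis histones and listed genes. Other members were named after their values were seen.

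Depth was estimated as the number of fragments and the length correction (150 to 170 bases) at which low values of 7056 other genes of 800 to 4000 bases fell closest to whole fragments. Between 75.4% and 78.9% of these values came out within 0.15 of a whole number. On simulated counts of the 7056 genes the search missed the true depth by at most 0.081%. The simulation used the same lengths as the search, so this error leaves out wrong lengths and is not the error of the depths given here. Stop codons, windows and stem-loops came from GENCODE M21 (GRCm38), and lengths and promoters from RefSeq. All 82 members were matched to RefSeq. A window was unique if no transcript of another gene on either strand held it. Protein sequences were not used here, and a marker gene is not reported here. Python 3.11.15, pandas 2.3.3 and NumPy 2.4.6 were used. Alternatives were other thresholds, scalings, pseudocounts, filters and lengths, and leaving out each library.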

Additional observations from a re-analysis of the deposited data

How the results depend on the processing

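Values on 3 libraries of 1 condition carry no test, so a change of setting can move a value but no call. The count of detected replicative genes was 15 in the report, 29 at a threshold of 0.1 FPKM, 7 at 3 FPKM and 3 at 10 FPKM, and 14 to 15 with each library left out. Detected variant genes stayed at 9 with each library left out. The variant share of H2A was 69.1% without members under 50% unique windows. The count of members over 2-fold between libraries was 35 with no filter beyond a mean above 0, 2 with a filter at 10 FPKM, and 5 to 8 with each library left out. The median log2 ratio of S52 over replicative genes was -1.52 with a pseudocount of 0.1, -1.60 with none, -0.36 without the filter and -1.77 with a filter at 10 FPKM, and -1.17 to -0.73 with S38 or S44 left out. Over variant genes it was -0.14 after rescaling to an equal sum and 0.022 after rescaling to the endothelial median, where the median of all detected rows was -0.14 and 6.1e-05, and -0.13 to -0.023 with S38 or S44 left out. With each library left out, the replicative share ran from 13.9% to 21.04%, the variant share of H3 from 99.6% to 99.8%, of H2A from 83.3% to 88.4% and of H1 from 25.97% to 39.2%, and the share of the 5 highest replicative genes from 85.0% to 88.8%. The stem-loop count was 28 in a window of 50 bases, 41 in 200 bases, 33 at 1 mismatch and 44 at 3. Apart from the values that follow from fewer genes or libraries, the cause of these moves was not tested. No paired analysis was possible because the libraries form a single group. With 3 libraries, outlying samples could not be assessed by a rule for larger groups.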
